A study of Oncorhynchus mykiss with 16 samples.

Results

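The livers of juvenile rainbow trout (Oncorhynchus mykiss) held in undiluted municipal wastewater effluent (MWWE) were compared with those of trout held at the upstream reference site. The comparison rests on 8 of the 16 arrays of the series, chosen by their titles: 4 arrays of the 100% effluent group and 4 of the control group (0% effluent). Each array carried whole-liver RNA of 1 independent pool of juveniles in one dye and, in the other dye, a reference pooled from every experimental sample. The remaining 8 arrays, 4 at 10% and 4 at 50% effluent, enter only through the shared estimate of the spread and of the dye effect, and as values set beside those of the 100% group. The control differs from the 100% group in site as well as in effluent, and these cannot be told apart. The sources used here do not give the number of fish in a pool, their sex or the length of exposure. Since whole liver was extracted, fewer cells of a type and less RNA per cell cannot be told apart.

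Municipal effluent is a mixture that can hold natural and synthetic estrogens, pharmaceuticals, personal care products, metals and ammonia. The liver of a fish is where many of these are metabolised, through cytochrome P450 and conjugating enzymes, and it is also the organ that makes the egg yolk precursor vitellogenin when estrogen receptors are activated, in juveniles and males as well as in mature females. Liver transcripts are for that reason a common readout of effluent exposure in trout. The 152 genes of this array are given in the files by a number alone. The files do not pair these numbers with gene names, and 0 of them matched the reference gene table, so no gene is given a name, a place in the genome or a function here. For the same reason the labelled tissue was not checked against liver markers, and no gene list was tested.

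The log2 ratio of sample over reference was the measure for each gene. A ratio of 0 means the level of the reference pool, and a ratio of 1 means a level 2 times higher. No gene passed the adjusted threshold of 0.05 between undiluted effluent and control in limma, a linear model that borrows information on the spread across genes. This is 0% of the 152 genes, and the smallest adjusted p was 0.797. At an unadjusted p under 0.05 there were 6 genes, or 3.95%, where 7.6 are expected if no gene differs. Of these, 3 had higher values at 100% effluent (1.97%) and 3 lower values (1.97%). The higher ones were genes 174, 178 and 132, and the lower ones genes 144, 121 and 71. Over all 152 genes, 66 differences were above 0 and 86 below, and their median was -0.04.

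**Figure D1:**
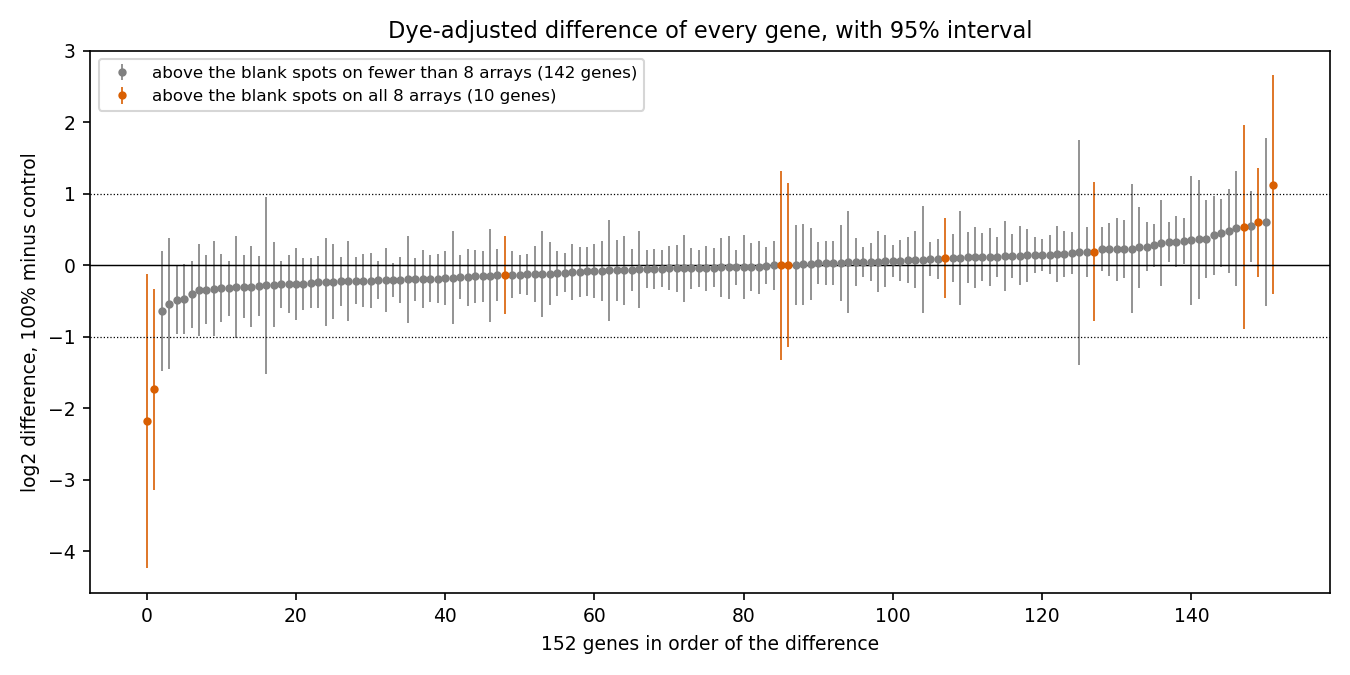
Dye-adjusted log2 difference of 100% effluent minus control for each of the 152 genes, in order of size, with its 95% interval as a bar. Dotted lines mark a 2-fold difference in either direction. The 10 genes above the blank spots on all 8 arrays (orange) hold the 3 differences past 2-fold and have wider intervals than most of the other 142.

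For the processing used here only, the intervals bound how large an undetected difference could be. Another normalization, given below, put each of the 10 genes above the blank spots on all 8 arrays past the upper end of its interval. Gene 37, for example, was at 2.80 there against an interval of -1.14 to 1.15. On the log2 scale the standard error of a difference was 0.18 at the median gene, which gives an interval of 0.39 to either side at 95%. For 132 of the 152 genes, or 86.8%, the whole interval lay within a 2-fold difference in either direction. These bounds are tight mainly for dim genes, and the processing itself pulls the ratios of dim spots towards 0, so a true difference in such a gene could be larger. Of the 81 genes that the sample's dye showed above the blank spots on 4 or more of the 8 arrays, 61 intervals (75.3%) lay within 2-fold, and among the 10 genes above the blanks on all 8 arrays only 2 did. For a gene to count as above the blanks, its spots had to average, after subtraction of their background, more than 3 SD over the mean of the 32 blank spots.

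Signals were dim on all 8 arrays: the ratio of signal to background at the median gene spot was 1.03 to 1.09 for Cy3 and 1.04 to 1.10 for Cy5. The sample was in Cy5 on control replicates 1 and 4 but at 100% effluent on replicate 2 only. The median Cy5 background was 294.5 to 528.1 on control replicates 1 and 4 and 100% replicates 1 and 3, 1598.5 to 1800.1 on control replicates 2 and 3 and 100% replicate 4, and 4401.7 on 100% replicate 2. Both control samples on arrays of low Cy5 background were in Cy5 and both effluent samples there were in Cy3, so within that class dye and group cannot be told apart without the other arrays. In every fit of that class alone, the dye effect comes only from 50% replicate 1 in Cy3 against 50% replicates 2 to 4 in Cy5. In every fit of the high-background arrays alone, it rests in part on 10% replicate 4, whose direction is in doubt as given below. Between 48 and 123 genes were above the blanks in the sample's dye on the 5 arrays with the sample in Cy3, and between 20 and 48 on the 3 with it in Cy5. On 100% replicate 2, the only effluent sample in Cy5, 20 genes were.

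The share of genes above the blank spots in both dyes was 19.1, 31.6, 46.1 and 30.9% on control replicates 1 to 4. At 100% effluent it was 68.4, 9.87, 25.7 and 36.2%. The effluent arrays spread over a wider range than the control arrays and enclosed it. The means were 31.9% ± 11.04 in control and 35.0% ± 24.7 at 100% (SD, n = 4 each), a difference of 3.12 percentage points with p = 0.857 by a two-sided exact permutation test over the 70 ways to divide the 8 arrays. The smallest p this design allows is 0.0286. Of 3 such measures per array, the share in the sample's dye differed by 2.80 percentage points (exact p = 0.886), and the SD of the log2 ratios over genes differed by -0.03 (exact p = 0.571). After Benjamini-Hochberg adjustment all 3 exact permutation p-values were 0.886.

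Gene 174 had the smallest p among genes with higher values at 100% effluent. It was at -0.07, -0.13, -0.26 and -0.22 on control replicates 1 to 4. At 100% effluent it was at -0.0019, 0.53, 0.02 and -0.09 on replicates 1 to 4. All 4 control arrays were below the reference pool, and the effluent arrays were close to it except replicate 2, which stood well above, while replicate 4 overlapped the control range. The dye-adjusted difference was 0.33 (SE 0.13, 95% interval 0.05 to 0.60), or 1.26-fold, and limma gave an adjusted p of 0.797. Without 100% replicate 2 the difference was 0.18. The gene was above the blanks on 1 control array and 2 effluent arrays, and not on 100% replicate 2. Its mean was -0.16 ± 0.14 at 10% and 0.03 ± 0.15 at 50% effluent (SD, n = 4 each). For 10% replicate 4 the deposited ratios oppose the dye label, which leaves its direction in doubt, and with that array turned the mean at 10% was -0.03.

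Gene 178 was at -0.58, 0.48, -0.58 and -0.51 on control replicates 1 to 4, and at 0.95, 0.19, 0.03 and 0.15 on 100% replicates 1 to 4. Control replicate 2 lay within the effluent range, and the other 3 control arrays lay below every effluent array. The dye-adjusted difference was 0.55 (SE 0.23, interval 0.05 to 1.04), or 1.46-fold, and limma gave the same adjusted p of 0.797. Without control replicate 3 the difference was 0.36. Control replicate 2 was the only control array on which this gene was above the blanks, against 3 effluent arrays, so the low control values are values not above the blanks. Its mean was 0.50 ± 0.27 at 10% and -0.15 ± 0.19 at 50% effluent (SD, n = 4 each), and with 10% replicate 4 turned the mean at 10% was 0.05.

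Gene 132 was at -0.03, -0.25, -0.25 and 0.06 in control and at 0.22, 0.43, 0.05 and -0.25 at 100% effluent. The groups overlapped, with 100% replicate 4 as low as control replicates 2 and 3. Its dye-adjusted difference was 0.34 (SE 0.15, interval 0.01 to 0.66), or 1.26-fold. The difference was 0.23 among arrays of low Cy5 background and -0.07 among those of high Cy5 background. Only control replicate 3 and 100% replicate 1 showed it above the blanks.

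Gene 144 had the smallest p of all 152 genes and was above the blanks on all 8 arrays. It was at -0.85, 1.38, 3.50 and -0.06 on control replicates 1 to 4 and at 0.30, -2.07, 1.003 and -0.66 on 100% replicates 1 to 4. The groups overlapped, control replicate 3 was the highest of the 8 and 100% replicate 2 the lowest. The dye-adjusted difference was -1.74 (SE 0.65, interval -3.14 to -0.33), or 3.33-fold lower, with an unadjusted p of 0.0190 in limma that became 0.797 on adjustment. Without control replicate 3 it was -1.004. It was 1.25, of the opposite sign, among arrays of low Cy5 background and -3.22 among those of high Cy5 background. Both values carry the limits on the dye effect given above. The 2 spots of the gene gave unequal differences, -0.54 from the first and -2.93 from the second. The second spot alone gave an adjusted p of 0.0226 by limma, the only pass in any of the 26 alternative fits.

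Gene 121 was the only one of the 6 whose 4 control arrays all lay above its 4 effluent arrays. It was at 0.88, 2.73, 1.75 and 0.78 in control and at -0.31, -0.19, -1.31 and 0.42 at 100% effluent, and it was above the blanks on all 8 arrays. The separation held for the mean of its 2 spots, and also without background correction or with a background offset of 10. It did not hold for the first or the second spot alone, with median centring or with the deposited ratios. On control replicate 2 its spots were at 5.68 and -0.22. The first spot alone gave a difference of -2.99 and the second -1.37. The dye-adjusted difference was -2.18 (SE 0.96, interval -4.24 to -0.12), or 4.53-fold lower, at the same adjusted p of 0.797 in limma. Among samples in Cy3 the difference was -2.64, and among samples in Cy5 it was -1.02, the latter from 1 effluent array. It was -0.996 among arrays of low Cy5 background and -0.55 among those of high Cy5 background. The dye effect in the high-background fit rests in part on 10% replicate 4, whose direction is in doubt. As labelled, that array was at 3.13 for this gene, and its part in the value of -0.55 was not tested. Its mean was -0.25 ± 2.82 at 10% and -0.21 ± 0.77 at 50% effluent (SD, n = 4 each), and with 10% replicate 4 turned the mean at 10% was -1.81.

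Gene 71 was at -0.17, -0.03, 0.59 and 0.10 in control and at -0.04, -0.93, 0.07 and -0.21 at 100% effluent. The groups overlapped, and 100% replicate 2 stood apart as the lowest of the 8. Its dye-adjusted difference was -0.48 (SE 0.22, interval -0.96 to -0.0025), or 1.40-fold lower, and it was -0.27 without 100% replicate 2. With median centring in place of loess it was 0.083, and among arrays of low Cy5 background 0.0030, both of the opposite sign. In each group 3 arrays showed it above the blanks.

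**Figure D2:**
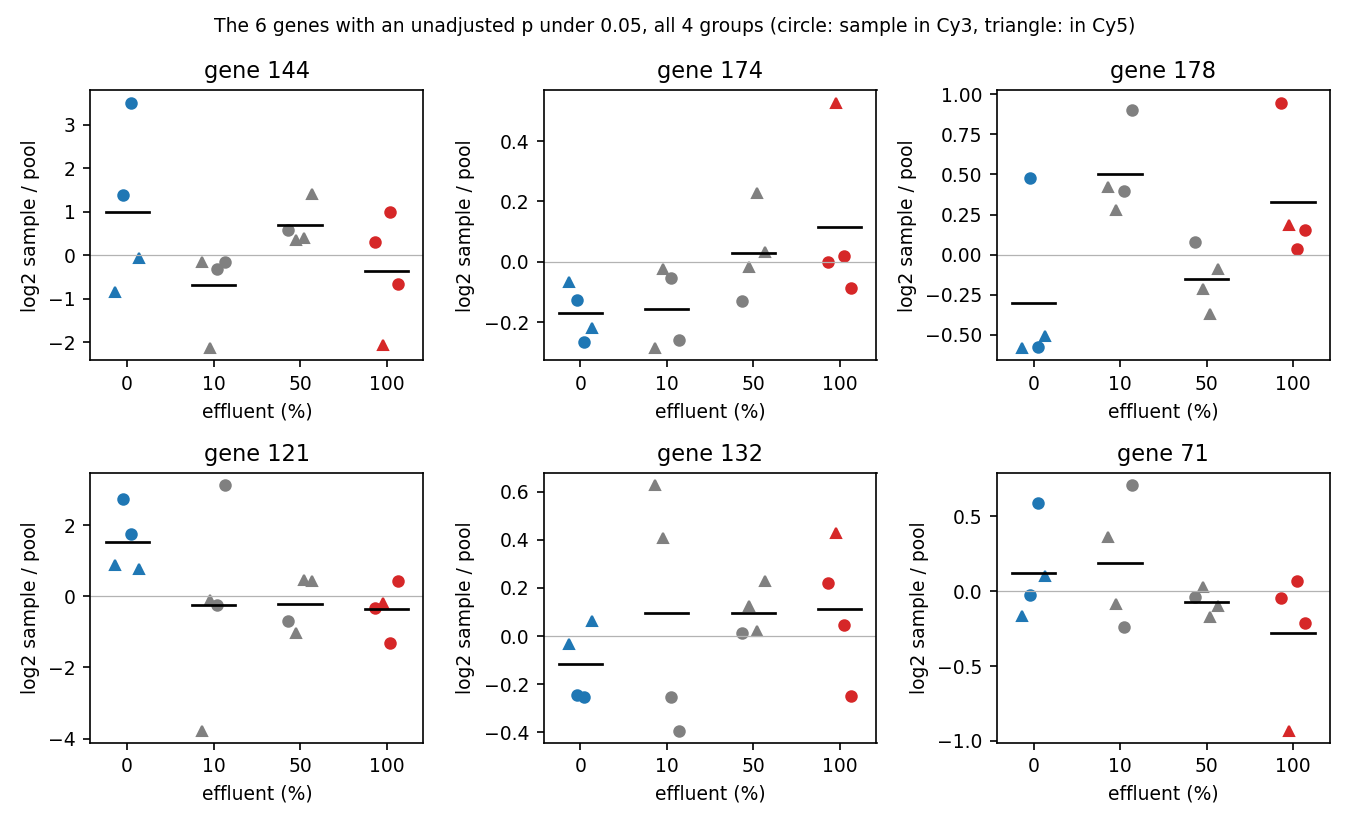
Log2 ratio of sample over reference pool for the 6 genes with an unadjusted p under 0.05, by effluent percent. Points are arrays (4 per group, circles with the sample in Cy3 and triangles in Cy5), lines are group means. Only for gene 121 do the 4 control arrays (blue) lie apart from the 4 arrays at 100% effluent (red). 10% replicate 4, whose direction is in doubt, is drawn as labelled.

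The ranking by p goes on with smaller differences. The 10 genes of smallest p with higher values at 100% effluent had differences of 0.26 to 0.60 (genes 174, 178, 132, 163, 36, 134, 55, 93, 38 and 180), and unadjusted p from 0.0230 to 0.129. The 10 with lower values had differences of -2.18 to -0.21 (genes 144, 121, 71, 101, 86, 65, 100, 49, 92 and 42), and unadjusted p from 0.0190 to 0.124. In each list 4 genes were above the blanks on fewer than 4 of the 8 arrays, as were 71 of the 152 genes. All 20 had the same sign among samples in Cy3 and among samples in Cy5, which their choice by a dye-adjusted difference favours. The same held for 5 of the 10 genes above the blanks on all 8 arrays and for 85 of the other 142. Among the 4 effluent arrays, 100% replicate 2 gave the lowest value for 8 of the 10 lower genes and the highest for 4 of the 10 higher genes. Over all 152 genes it gave the lowest value for 51 and the highest for 41. Leaving it out took gene 100 from -0.32 to -0.09, gene 49 from -0.27 to -0.10 and gene 92 from -0.21 to -0.10. Gene 42 went from -0.64 to -0.36 without control replicate 1. 100% replicate 2 was the only effluent sample in Cy5 and had the highest Cy5 background of the 8. The part of dye and background in these values was not tested.

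**Figure D3:**
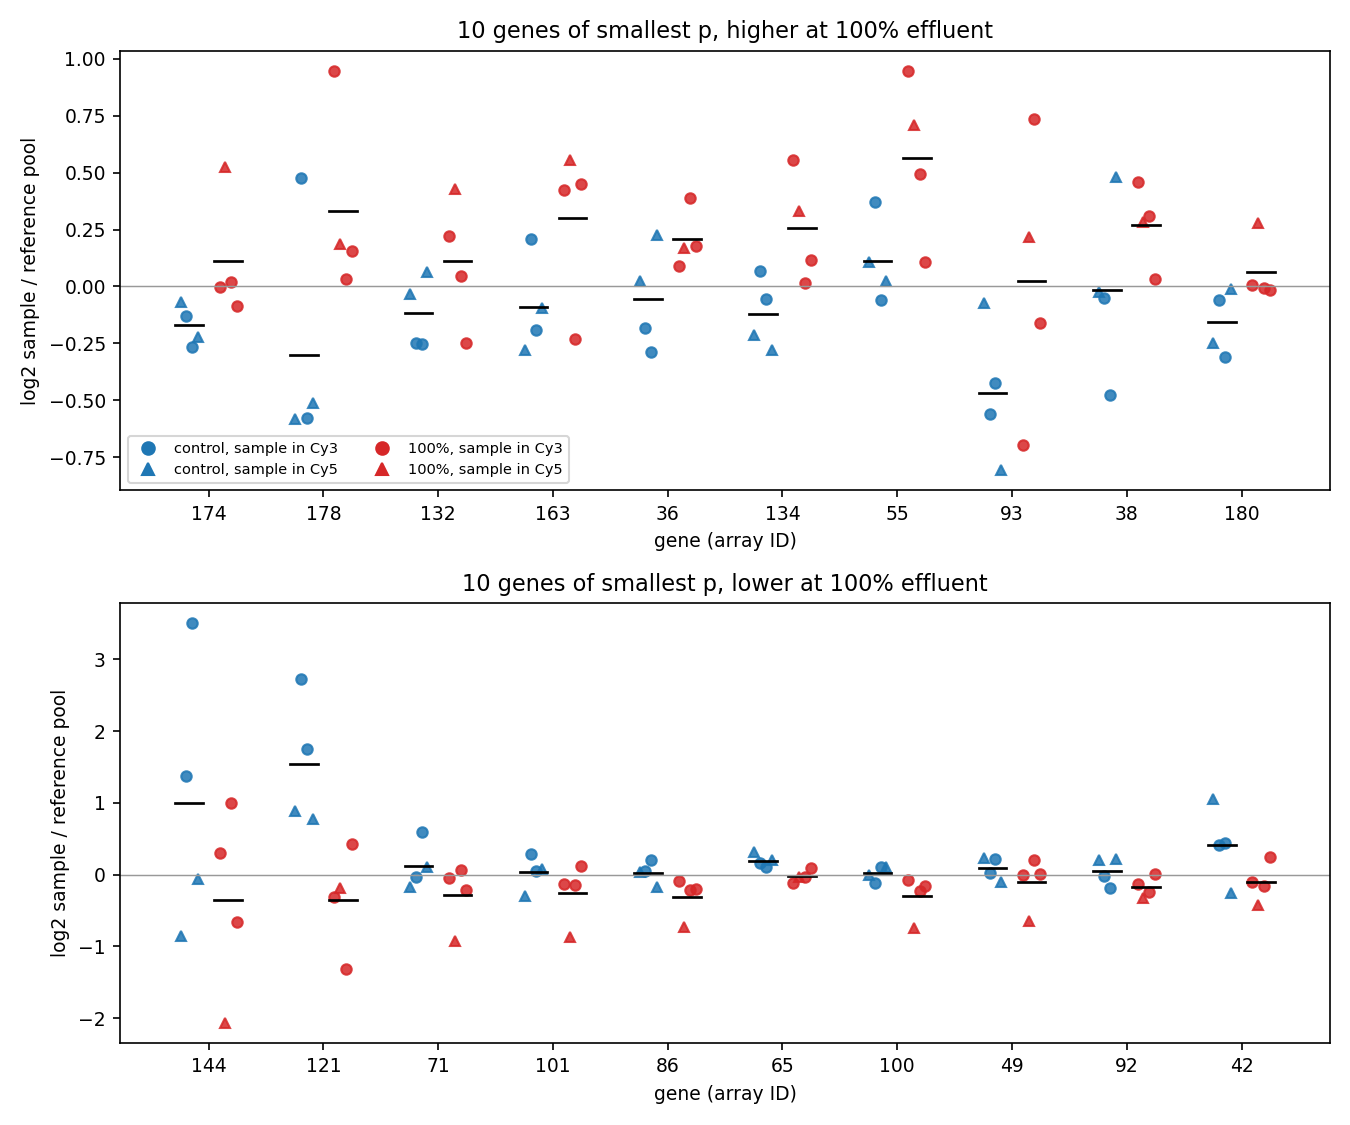
Log2 ratio of sample over reference pool on each of the 8 arrays for the 10 genes of smallest p with higher (top) and lower (bottom) values at 100% effluent. Lines are group means, circles and triangles mark the dye of the sample, and the vertical scales of the panels differ. The red triangle, 100% replicate 2, is the lowest effluent value for 8 of the 10 lower genes.

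The 4 control and the 4 effluent arrays did not overlap at all for 4 of the 152 genes (2.63%). In 2 of them the effluent arrays were higher (1.32%), genes 34 and 176, and in 2 lower (1.32%), genes 65 and 121. Gene 34 was at 0.05, -0.09, -0.04 and 0.03 in control and at 0.10, 0.18, 0.12 and 0.13 at 100% effluent. Its arrays were unusually close together in both groups, and the difference was 0.15 (SE 0.10). It was above the blanks on 1 control array and 2 effluent arrays, and its spots gave -0.09 and 0.38. Gene 176 was at -0.57, 0.02, -0.28 and -0.12 in control and at 0.84, 0.15, 0.36 and 0.07 at 100% effluent, a difference of 0.51 (SE 0.38). It was above the blanks on 1 control array and 3 effluent arrays. Among arrays of low Cy5 background alone, the difference of gene 176 was -0.64. The dye effect in that fit comes from 50% replicate 1 in Cy3, at 0.74, against 50% replicates 2 to 4 in Cy5. Those were at -1.68, -0.80 and -0.06. Gene 65 was at 0.31, 0.16, 0.11 and 0.20 in control and at -0.11, -0.04, -0.04 and 0.10 at 100% effluent, a difference of -0.21 (SE 0.11), with -0.42 from its first spot and 0.0027 from its second. The adjusted p of all 3 was 0.797 by limma.

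The 10 genes above the blanks on all 8 arrays were as a set more variable between arrays than the rest. They are not simply the brightest or most variable genes. Gene 31, not among them, had a high signal and a control SD of 1.18. The median SD among the 4 control arrays was 0.79 for these 10 and 0.20 for the other 142, and at 100% effluent it was 0.68 and 0.21. Their differences ran from -2.18 to 1.13 with a median of 0.05, 6 of them above 0 and 4 below. Beside genes 121 and 144, gene 68 had the largest difference, 1.13 (SE 0.71), followed by gene 93 at 0.60 (SE 0.35) and gene 131 at 0.54 (SE 0.66). Gene 68 was at 0.41, -0.54, -1.67 and 0.38 in control and at 2.51, 0.82, -0.09 and -1.39 at 100% effluent, so that the groups overlapped, and without 100% replicate 1 the difference was 0.38. On 100% replicate 1 its spots were far apart, at 4.09 and 0.93. Gene 93 was at 0.34 without 100% replicate 3, and gene 131 ranged from 0.04 without control replicate 3 to 1.39 without 100% replicate 2. The smallest differences were those of genes 48 (0.19, SE 0.46), 67 (-0.13, SE 0.25), 54 (0.10, SE 0.26), 37 (0.0045, SE 0.54) and 130 (-0.00064, SE 0.62). An interval of -1.14 to 1.15 for gene 37 and of -1.33 to 1.33 for gene 130 leaves room for a difference of more than 2-fold in either direction. With median centring in place of loess, the differences of genes 48, 67, 54, 37 and 130 were 2.72, 0.62, 0.96, 2.80 and 1.92. Those of genes 68, 93 and 131 were then 3.04, 1.52 and 2.93.

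The signals of these 10 genes were set beside their ratios before and after loess, to show what the normalization changed. On the 4 arrays of low Cy5 background the ratio of Cy5 to Cy3 signal, taken per gene, had a median of 1.08 to 1.61. On the 4 of high Cy5 background that median was 9.48 to 19.9. These uncorrected signals still hold the local background. On those 4 arrays its median was 1598.5 to 4401.7 in Cy5 and 343.6 to 570.6 in Cy3. Gene 121 on control replicate 2 had a sample signal of 3329 in Cy3 and a reference signal of 44060 in Cy5, a ratio of -3.12 after median centring alone and of 2.73 after loess, which fits and removes an intensity-dependent difference between the dyes. On 100% replicate 2, with the dyes the other way round, the same gene had 33550 in Cy5 for the sample and 720.7 in Cy3 for the reference, 4.76 after median centring and -0.19 after loess. Gene 144 on control replicate 3 went from -1.87 to 3.50. The Cy5 signals of gene 121 on the high-background arrays other than 100% replicate 2 were 42385 to 44585, where the brightest gene spot of those arrays stood at 45416 to 47321. Whether the Cy5 signal was still proportional to the RNA at that brightness was not tested.

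**Figure D4:**
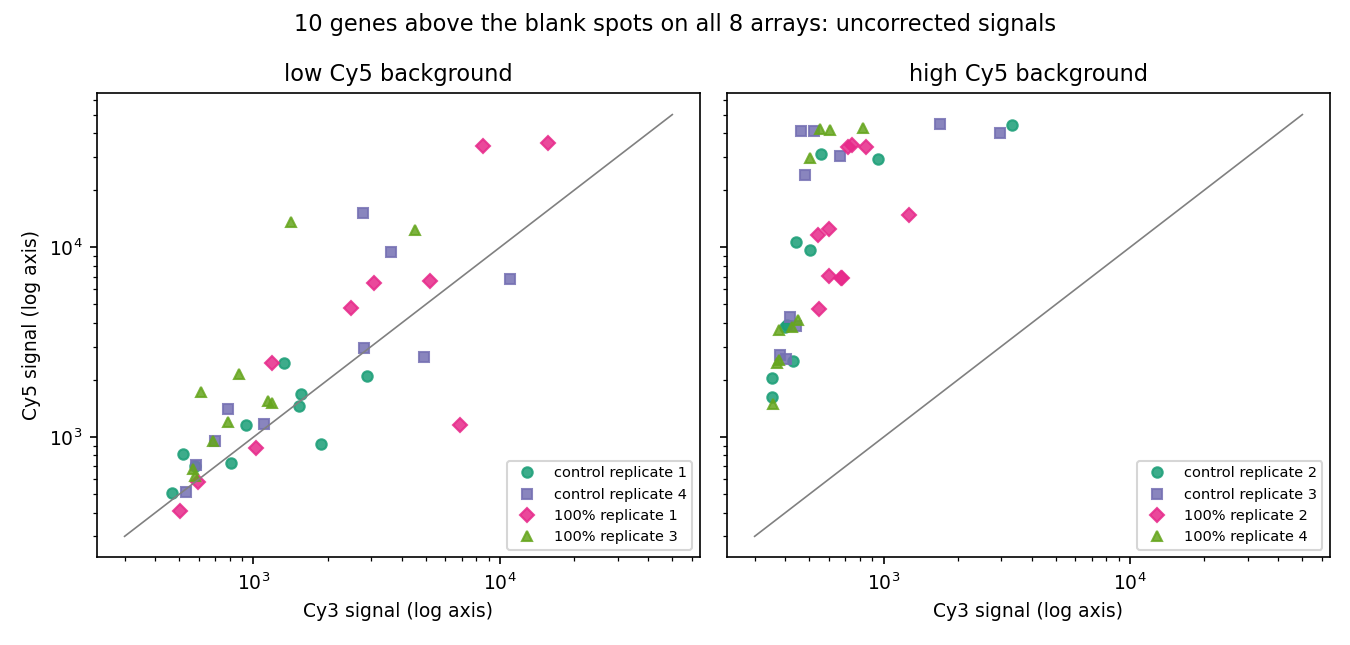
Uncorrected Cy3 and Cy5 signal (log axes), local background included, of the 10 genes above the blanks on all 8 arrays. Each point is the mean of a gene's spots on 1 array. The line marks equal signals. On the 4 arrays of low Cy5 background most points lie near the line, and on the 4 of high Cy5 background all points lie well above it.

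The direction of the dye-adjusted difference of genes 144 and 121, as that of gene 71, depended on that step. With median centring in place of loess, it was 1.64 for gene 144 and 1.09 for gene 121, both with the opposite sign. The median-centred means without dye adjustment were -1.26 ± 2.18 in control and -0.74 ± 3.54 at 100% for gene 144 (SD, n = 4 each). For gene 121 they were -0.84 ± 2.81 and -0.96 ± 4.02, so without dye adjustment it stayed slightly lower at 100% effluent. The same alternative gave 20 genes at an unadjusted p under 0.05, 14 higher and 6 lower, against 3 and 3 with loess, and shared 1 gene with them. No gene passed the adjusted threshold there either, with a smallest adjusted p of 0.136 by limma. The small differences of genes 174, 178 and 132 moved less between these normalizations, to 0.27, 0.57 and 0.33. Their sizes did depend on the background step. They were 0.05, 0.16 and 0.08 without background correction, and 0.62, 0.88 and 0.61 with an offset of 10 in that correction. With the authors' deposited ratios all 3 kept their sign at 0.02, 0.16 and 0.06, gene 144 was at -0.25 and gene 121 at -0.74, and no gene passed.

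**Figure D5:**
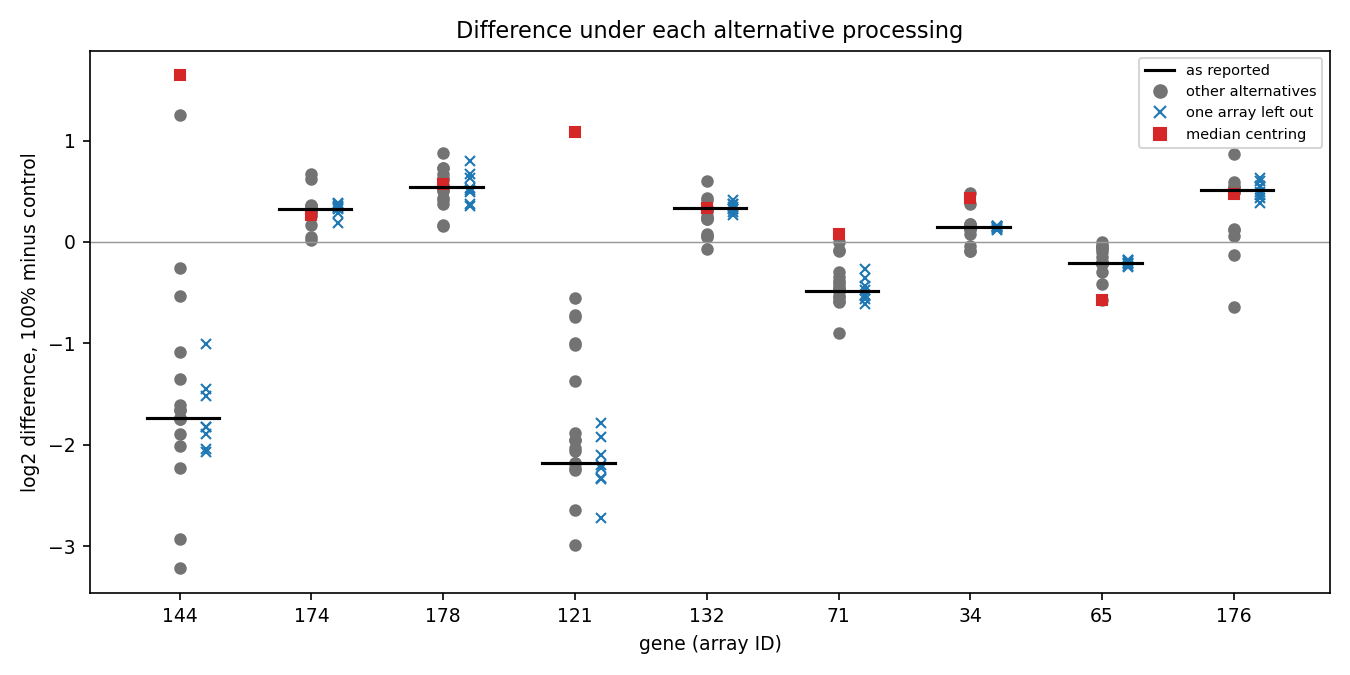
Log2 difference of 100% effluent minus control for the 6 genes with an unadjusted p under 0.05 and the 3 others whose arrays did not overlap, as reported (line) and under each alternative (points). Red squares mark median centring, which puts genes 144, 121 and 71 on the other side of 0, and crosses mark fits that leave out 1 of the 8 arrays.

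Profiles over all 152 genes did not separate the groups. Between pairs of the 8 arrays, the correlation of log2 ratios across genes, which are not independent replicates and share the reference pool, had a median of -0.04 for the 5 pairs of the same group and the same sample dye, with a range of -0.22 to 0.43. It had a median of 0.12 for the 8 pairs of different groups and the same dye, with a range of -0.17 to 0.33. For pairs of different dyes the medians were -0.02 within groups (7 pairs) and -0.06 between groups (8 pairs). The highest of the 28 values, 0.43, joined control replicates 2 and 3, which had the sample in Cy3 and a high Cy5 background. The next highest, 0.33, joined control replicate 2 with 100% replicate 4, which shared that dye and that background class but not the group.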

How the data were processed

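Per the file headers, the deposited scanner files hold the mean intensity of each spot and of its local background in Cy3 and Cy5, without subtraction or normalization. Per the labels, the sample's dye is recorded for every array. Each array had 384 spots, of which 306 belonged to 152 genes and 32 were blank. Scanner and image software are not stated in the sources used here. The authors also deposited a table of ratios per spot, taken as log2 from its values. Its columns are centred near 0 and correlated at 0.640 to 0.994 with uncorrected loess ratios on the 8 arrays. Its scale stays unproven, and it served as an alternative.

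In limma 3.58.1 (R 4.3.3) the intensities went through normexp background correction with an offset of 50 and, array by array, loess on gene spots with a span of 0.3. The dye label of each array set the direction, sample over reference, and the spots of a gene averaged. All 16 arrays entered one limma fit of 4 group means and a dye term (11 residual degrees of freedom, 3.01 from the prior), with Benjamini-Hochberg adjustment over 152 genes. Labels give the pools as biological replicates, and with 1 array per pool the spread between pools and arrays cannot be separated. The fit was tested on simulated data with independent normal noise and the same dye shift for every gene. Such data cannot show how the fit handles a dye difference that varies with brightness or between arrays.

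Named were the 10 genes of smallest p in each direction, the genes above the blanks on all 8 arrays and those whose arrays did not overlap. The comparison, this rule and the alternatives were chosen with earlier results of these data known.

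The labels give each group replicates 1 to 4 without saying what a number shares. Deviations of same-numbered control and 100% arrays correlated at -0.10, 0.05, 0.10 and 0.07, so the numbers were not taken as pairs. Alternatives covered background correction, normalization, deposited ratios, dim genes, single spots, arrays and terms in the fit, Cy5 background class (median above 1000), sample dye and each array left out. The number of arrays limits the precision.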

Additional observations from a re-analysis of the deposited data

Results flagged for a closer look

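Of 58 groups of 4 values, control and 100% effluent for each of the 29 named genes, 6 held a value far from the other 3. For normally distributed values chance alone gives this for about 5% of groups. The share over all 152 genes was not counted. Genes that were not named held such values too, as gene 66 did with 0.54 on control replicate 1 (other control arrays 0.03 to 0.05). For gene 178 both groups held one: control replicate 2 gave 0.48 where the rest of the control ran from -0.58 to -0.51, and 100% replicate 1 gave 0.95 where the rest ran from 0.03 to 0.19. Gene 163 had its lone low value on 100% replicate 3, -0.23, with 0.43 to 0.56 elsewhere at 100% effluent. Gene 180 had a lone high value, 0.28, on 100% replicate 2, which did not show it above the blank spots, with -0.01 to 0.0048 elsewhere. Among bright genes, control replicate 1 gave 1.43 for gene 54 (others -0.0034 to 0.13) and control replicate 4 gave -2.24 for gene 37 (others -0.37 to -0.14).

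The spots named Q enter no comparison. Over the 8 arrays, 64.3% of their Cy3 values and 49.1% of their Cy5 values lay above the limit set from the blank spots, which 0% and 0.781% of the blank values themselves passed.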

How the results depend on the processing

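With 26 alternative fits, no gene passed the adjusted threshold between 100% effluent and control in 25 of them; the second spot of each gene alone gave 1 pass, gene 144 at -2.93. The count at an unadjusted p under 0.05, 6 as reported, was 20 with median centring, 11 with a normexp offset of 10, 10 with the 8 arrays alone, 13 and 3 among samples in Cy5 and in Cy3 alone (both added after the data had been seen), 3 over the 81 genes above the blanks on at least 4 of the 8 arrays and with 10% replicate 4 turned, 2 without the dye term and among arrays of high Cy5 background, and 1 with a dye term for each background class. Turning or leaving out 10% replicate 4 was tried because the deposited ratios of that array oppose its dye (r = -0.560). With that array turned, 2 of the 6 reported genes stayed at an unadjusted p under 0.05, and with it left out all 6 did. With 1 of the 8 arrays left out the count was 2 to 8, with 2 lacking control replicate 4 or 100% replicate 2 and 3 lacking control replicate 3. The 4 genes without overlap became 1 with the deposited ratios, a gene not among the 4. Of the 4 without background correction 1 was shared, of the 5 from the second spot 1 and of the 5 from the first spot 2. With an array left out, which cannot create an overlap, there were 4 to 12. A replicate block gave 8 genes at an unadjusted p under 0.05 and no pass, and the numbers were not taken as pairs. The share above the blanks differed by -2.63 percentage points with a limit of 2 SD, and by -8.00 to 11.5 with an array left out. For the cause of these changes no test was made beyond what the smaller sets of genes or arrays imply. Signs turned as follows. Median centring put genes 144, 121, 71, 67 and 130 at 1.64, 1.09, 0.083, 0.62 and 1.92. Arrays of low Cy5 background put genes 134, 144, 71, 86, 100, 54 and 176 at -0.11, 1.25, 0.0030, 0.18, 0.087, -0.61 and -0.64. Arrays of high Cy5 background put genes 132, 55, 38, 101, 42, 68, 48, 67 and 37 at -0.065, -0.0071, -0.041, 0.15, 0.26, -0.50, -0.11, 0.099 and -0.11. A dye term per class put genes 42 and 176 at 0.11 and -0.13. Samples in Cy3 alone put genes 48 and 37 at -0.26 and -0.75, and samples in Cy5 alone genes 131, 67 and 130 at -1.21, 0.022 and 0.19. The first spot put genes 134, 54, 130 and 34 at -0.0085, -0.11, 0.16 and -0.087, and the second genes 65, 100, 131, 67 and 37 at 0.0027, 0.038, -0.50, 0.054 and -0.038. Without background correction genes 67, 37, 130 and 34 were at 0.037, -0.034, 0.057 and -0.041. Offset 10 put genes 37 and 130 at -0.041 and 0.32, and the deposited ratios genes 67 and 34 at 0.054 and -0.089. Gene 37 was at -0.0096 without the dye term and at -0.015 with the 8 arrays alone. With an array left out, genes 48, 67, 54, 37 and 130 ranged from -0.12 to 0.60, -0.36 to 0.085, -0.057 to 0.37, -0.48 to 0.24 and -0.10 to 0.13. The other 24 named genes kept their sign with any of the 8 arrays left out.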
